A study of Rattus norvegicus with 12 samples.

Results

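The piRNA described here is rno_piR_005567, 1 of 701 piRNA names listed in small RNA libraries of rat liver. It was chosen by name, because earlier results of these same libraries showed it to be higher late after surgery. Its read counts, its distinct sequences and the authors' 2 percentages across the groups are therefore a description, and no test is given for them. The name was listed in all 12 libraries, as were 61 of the 701 names.

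The livers came from Fischer-344 rats, an inbred strain. Sham-operated, otherwise normal liver served as the control group (pre_PH, 6 libraries). Liver in its regeneration phase was taken 24h, 48h and 168h after partial hepatectomy, the removal of part of the liver, with 2 libraries at each time. The labels give no age, no sex and no statement on whether libraries came from separate animals, so the spread between libraries may be technical. No sham-operated liver matched to each time is in the labels, so time after surgery and surgery itself cannot be told apart.

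PIWI-interacting RNAs (piRNAs) are small RNAs bound by PIWI proteins, a branch of the Argonaute family. They are best known from the germ line, where they guide the silencing of transposable elements, and they are scarce in most other tissues. After partial hepatectomy the hepatocytes that remain leave quiescence, copy their DNA and divide until liver mass is restored. The names used here come from a catalogue of piRNAs, and entries of such catalogues can share sequence with fragments of other RNAs. The files pair the names with neither sequences nor genome positions, so such sharing was not tested for rno_piR_005567 and its sequence is not shown. The files list piRNA names alone, so the tissue could not be checked against markers of liver or of other cell types. In whole tissue, a change in the mix of cells and a change in RNA per cell cannot be told apart.

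Library totals ran from 20741811 to 31467460 reads, and listed piRNA reads from 120844 to 351818 a library. The 48h libraries listed 328 and 446 piRNA names, and every other library 128 to 216. They thus differed from the rest in more than rno_piR_005567, and the cause was not tested. With at least 1465 reads of rno_piR_005567 in each library, the counting error of its value was at most 2.61%. This error covers reads and not molecules copied by PCR.

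In sham-operated liver rno_piR_005567 was already among the more abundant piRNAs. Its level, in reads per 1000000 library reads (RPM), was 265, 165, 122, 59.3, 260 and 121 in pre_PH replicates 1 to 6. These 6 libraries thus differed among themselves by 4.46-fold, with replicates 1 and 5 high and replicate 4 low. The mean was 165 ± 82.4 RPM (SD, n = 6) and the geometric mean 147. At 24h the level was 141 RPM in replicate 1 and 300 in replicate 2, the first inside the pre_PH range and the second just above it. At 48h it was 622 RPM in replicate 1 and 1369 in replicate 2. Both 48h libraries lay above all 6 pre_PH and both 24h libraries. At 168h it was 155 RPM in replicate 1 and 2221 in replicate 2. The first of these sat inside the pre_PH range, near its middle, and the second was the highest of all 12 libraries.

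**Figure D1:**
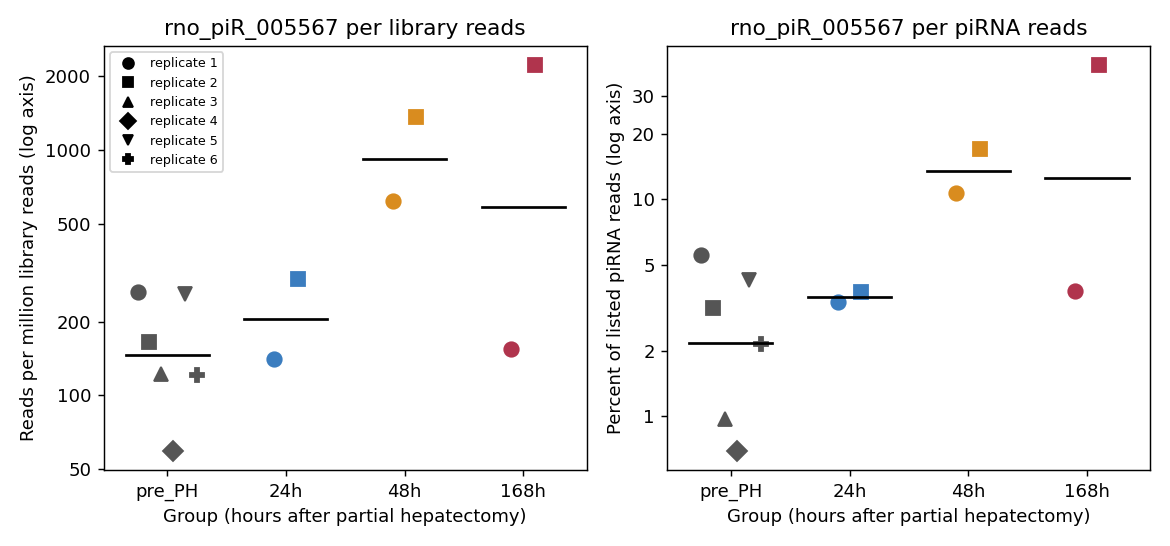
Level of rno_piR_005567 in each library, as RPM of library reads (left) and as percent of listed piRNA reads (right), both on log axes, by group. Each point is a library, its shape gives the replicate number and the black line is the group's geometric mean; both 48h libraries lie above the pre_PH points, while the 168h libraries lie at 155 and 2221 RPM.

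Ordered by geometric mean, the levels were 147 RPM (pre_PH), 206 (24h), 586 (168h) and 923 (48h). The neighbours pre_PH and 24h overlapped and differed by 1.40-fold, a log2 difference of 0.49 ± 1.00 (SE from the pooled spread within groups). That pooled spread was widened by the 168h pair, whose log2 SD was 2.72, beside 0.77 to 0.81 in the other groups. The neighbours 168h and 48h overlapped too, with both 48h libraries between the 168h ones. Against pre_PH, the level at 48h was 6.30-fold as high, a log2 difference of 2.65 ± 1.00. Taken one library at a time, it was 4.25-fold the pre_PH geometric mean in 48h replicate 1 and 9.34-fold in replicate 2. At 168h the value was 4.0-fold as high, but this joined 1.06-fold in replicate 1 with 15.2-fold in replicate 2. A level above the sham-operated range, as the label of a late rise has it, was thus present in both libraries at 48h and in 1 of 2 at 168h. It was also present, by a small margin, in 1 of 2 at 24h (300 RPM against a pre_PH high of 265). How common such a place was depended on the piRNAs counted. Of the 80 that passed the filter on low counts, 40.0% had both libraries above the pre_PH range at 48h, 12.5% at 168h and 2.50% at 24h. Some of these 80 had few or no reads in pre_PH and could pass the filter through the group where they were high. Of the 36 piRNAs with at least 10 reads in every library, 11.1% (4, rno_piR_005567 included) had this place at 48h and 13.9% at 168h, where rno_piR_005567 did not. This comparison on the 36 was chosen after the data were seen. Both 48h libraries were above both 24h libraries for 60.0% of the 80.

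As a part of the piRNA pool, rno_piR_005567 went from a lesser place among the abundant names to the leading one in a single library. It made up 5.54, 3.16, 0.971, 0.691, 4.26 and 2.16% of listed piRNA reads in pre_PH replicates 1 to 6. Its rank among all names there was 5, 8, 11, 12, 7 and 9. At 24h the share was 3.36% and 3.73%, and the rank 7 in both libraries. These shares lay close together and inside the pre_PH range. At 48h the share was 10.7% in replicate 1, with a 95% Wilson interval of 10.5 to 10.9%, and 17.1% (17.0 to 17.3%) in replicate 2, at ranks 4 and 2. Both lay above the pre_PH range, which 41.2% of the 80 piRNAs also showed on this scale, with the same limit of the filter. At 168h the share was 3.80% in replicate 1 (3.69 to 3.90%), at rank 5, and 41.5% in replicate 2 (41.3 to 41.8%), at rank 1. Replicate 1 again fell inside the pre_PH range.

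The size of the difference depended on how libraries were scaled, and on whether counts were fitted or log2 levels averaged. A fit of all 80 piRNAs with edgeR and TMM, a scaling that assumes most features are unchanged, gave log2 fold changes against pre_PH of 0.61 ± 0.74 (SE) at 24h, 1.82 ± 0.70 at 48h and 2.75 ± 0.69 at 168h. The medians of all 80 were -0.22, 0.09 and 0.33. By size, rno_piR_005567 stood at place 12, 26 and 3 from the top. Scaled to library totals, the fit gave 0.42 ± 0.82, 2.59 ± 0.76 and 2.85 ± 0.76. The TMM value at 168h rested on 1 library, since without 168h replicate 2 it was 0.17 ± 0.98. It was 3.65 ± 0.71 without 168h replicate 1 and 2.12 ± 0.80 without pre_PH replicate 4. That at 48h was 0.67 ± 0.65 without 168h replicate 1, 0.74 ± 0.83 without 24h replicate 2, 0.89 ± 1.12 without 48h replicate 2, 1.22 ± 1.03 without 48h replicate 1 and 3.03 ± 0.81 when fitted on the 36 piRNAs with at least 10 reads in every library. At 24h it was -0.26 ± 1.17 without 24h replicate 2.

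The TMM factor of 168h replicate 1 was 0.842, and 1.94 when rno_piR_005567 was left out of its computation. For 168h replicate 2 the factors were 1.302 and 2.34. On the TMM scale 168h replicate 1 held 45107 normalised CPM, above the highest pre_PH library, replicate 1, at 39428. This used the factors computed with rno_piR_005567. Without it, the factor of pre_PH replicate 1 fell from 1.40 to 1.01 while that of 168h replicate 1 rose. A higher factor lowers normalised CPM, so 168h replicate 1 no longer lies above the pre_PH range with those factors. On the scales of library reads and piRNA reads 168h replicate 1 lay within the pre_PH range. Whether 168h replicate 1 was raised at all thus differed between scales.

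**Figure D2:**
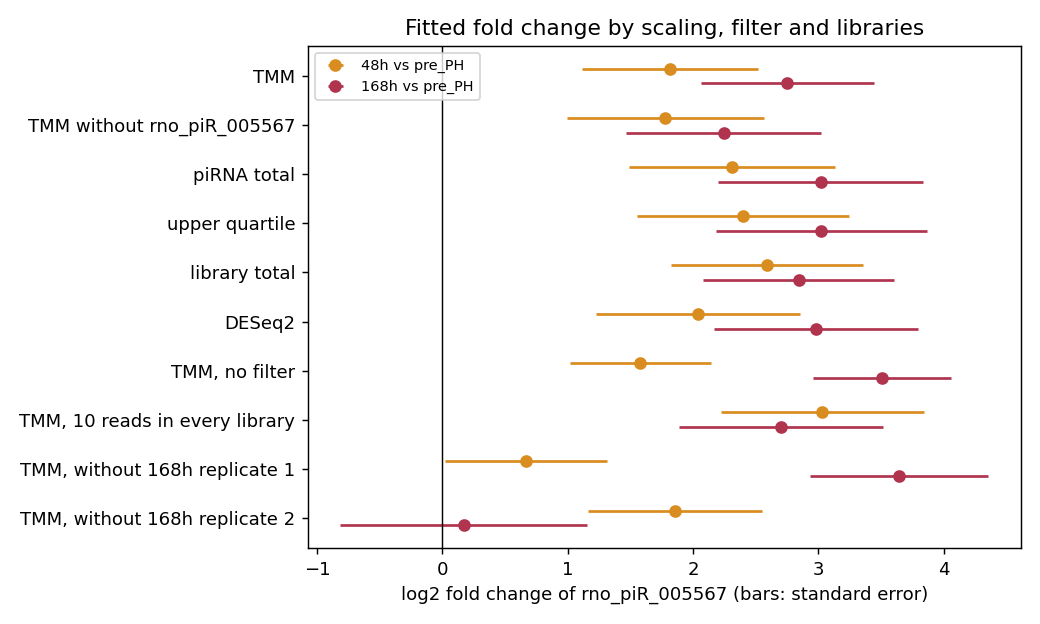
Fitted log2 fold change of rno_piR_005567 at 48h and at 168h against pre_PH (horizontal axis) under each scaling, filter or set of libraries (vertical axis), with the standard error as bars. The 168h value drops from 2.75 to 0.17 without 168h replicate 2, and the 48h value ranges from 0.67 to 3.03.

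Among the later times, the fit gave log2 fold changes of 1.21 ± 0.94 from 24h to 48h, 0.94 ± 0.94 from 48h to 168h and 2.14 ± 0.97 from 24h to 168h. The SD of its log2 normalised CPM within groups, pooled over the 4 groups, was 0.98, close to the first 2 steps. With TMM, the step from 24h to 48h was 0.03 ± 0.82 without 168h replicate 1, 0.51 ± 1.15 without pre_PH replicate 6 and 0.51 ± 1.35 without 48h replicate 2. The step from 48h to 168h had no settled direction. It was -1.68 ± 1.23 without 168h replicate 2, 2.98 ± 0.98 without 168h replicate 1, 2.08 ± 1.52 without 48h replicate 2, 1.83 ± 1.09 without 24h replicate 2, 1.76 ± 1.18 without pre_PH replicate 6 and 0.37 ± 1.03 without pre_PH replicate 4. The step from 24h to 168h turned to -0.89 ± 1.18 without 168h replicate 2, and was 3.0046 ± 0.98 without 168h replicate 1 and 2.83 ± 1.51 without 24h replicate 2.

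The reads of rno_piR_005567 came from a limited set of distinct sequences, whose number moved far less than the reads. In pre_PH replicates 1 to 6 there were 24, 27, 27, 22, 30 and 35 distinct sequences. There were 30 and 27 at 24h, 32 and 46 at 48h, and 35 and 33 at 168h, in replicates 1 and 2. Reads spanned a 41.6-fold range over the 12 libraries, from 1465 to 61011, and distinct sequences a 2.09-fold range. At 168h replicate 2 held 61011 reads in 33 distinct sequences, and replicate 1 held 4799 reads in 35. This is an average of 1849 and 137 reads a sequence. In pre_PH the average ran from 66.6 to 294 reads a sequence, and at 48h it was 403 and 936. The libraries thus differed far more in reads for each sequence than in the number of sequences. How reads divide among those sequences is not in the tables used here, so a single sequence that dominates was not tested.

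**Figure D3:**
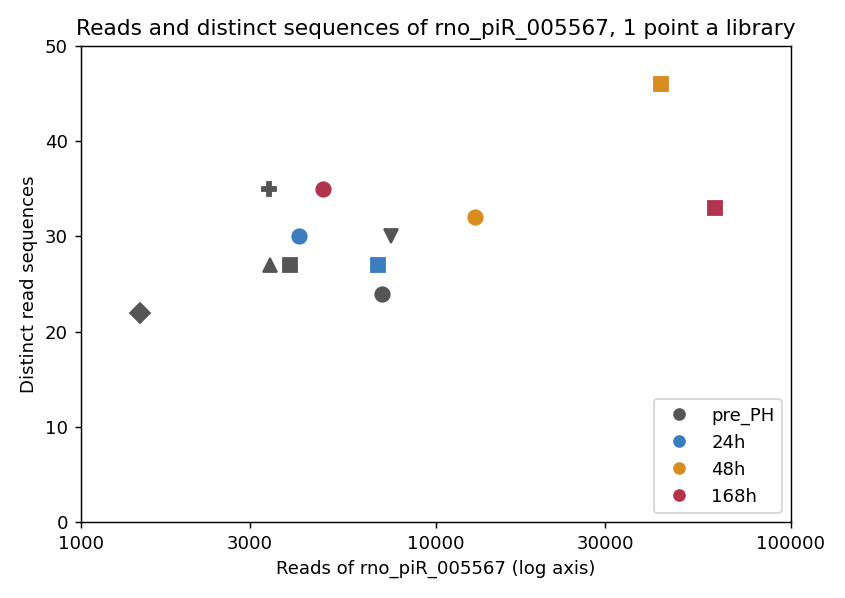
Distinct read sequences of rno_piR_005567 (vertical axis, from 0) against its reads (horizontal axis, log) in each library, coloured by group, with replicate shapes as in the plot of levels. Distinct sequences stay between 22 and 46 while reads go from 1465 to 61011.

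The other 9 abundant piRNAs varied by 1 to 2.69-fold in distinct sequences over the 12 libraries. For rno_piR_005901 every library had 1 distinct sequence at 3457 to 25435 reads. For rno_piR_004288 there were 22 to 30 at 5371 to 33934 reads, and for rno_piR_000685, the most abundant name in sham-operated liver, 86 to 91 at 26005 to 161081 reads. Wider ranges were found for rno_piR_000030, with 29 to 78 distinct sequences, rno_piR_005787, with 58 to 120, and rno_piR_005900, with 58 to 110. Among the 36 piRNAs with at least 10 reads in every library, the median number of reads a sequence was 197 for rno_piR_005567, at place 4. The range of its distinct sequences stood at place 19, beside a median of 2.14-fold over the other 35.

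The gap between the 2 libraries at 168h was wide for rno_piR_005567. Replicate 2 held 14.4 times the RPM of replicate 1, the highest ratio among the 36 piRNAs. The next was 4.18-fold, for rno_piR_000219, and the median of the other 35 was 0.771-fold, with 12 higher and 23 lower in replicate 2. At 24h and 48h replicate 2 was also the higher library for rno_piR_005567, by 2.12-fold and 2.20-fold, at places 9 and 15 of the 36. Within pre_PH, the SD of its log2 level was 0.81, at place 13, where the median of the others was 0.65 and the highest 2.74, for rno_piR_005787. The spread in sham-operated liver was thus moderate for this set of piRNAs.

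**Figure D4:**
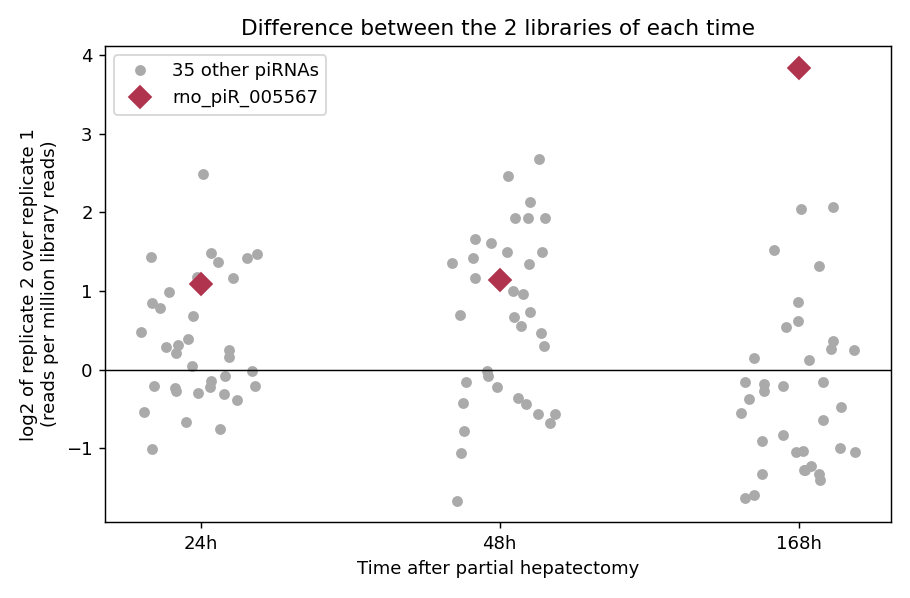
Log2 ratio of replicate 2 to replicate 1, in RPM of library reads (vertical axis), at each time after hepatectomy for rno_piR_005567 (diamond) and 35 other piRNAs (grey points). At 168h the diamond lies at 3.84, above the next value of 2.07.

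With rno_piR_005567 set aside, the remaining piRNAs made up a smaller mean share of library reads at each time than in pre_PH, a difference that passed at none. These measures hold none of its reads and were tested. Sham-operated liver had 0.697% ± 0.301 (SD, n = 6) of its library reads in all other listed piRNAs together. The 2 libraries of each later time averaged 0.589% ± 0.260 (24h), 0.592% ± 0.101 (48h) and 0.352% ± 0.0562 (168h). The pre_PH median was 0.566%, below the 24h and 48h values, so the direction at those times held for means and not for medians. At 168h the other piRNAs made up 0.392% in replicate 1 and 0.313% in replicate 2, both below the lowest pre_PH library at 0.452%. The 168h geometric mean was 0.537 of that in pre_PH, which did not pass (exact two-sided permutation p = 0.0714, adjusted p = 0.214 over 3 times). Nor did the earlier times pass (adjusted p = 0.786 for 24h and for 48h by the same exact permutation test). With 28 splits of 2 against 6 libraries the smallest possible p is 0.0357, so none could pass after adjustment unless all 3 times were at that minimum. In 168h replicate 2 the reads of rno_piR_005567 came to 0.222% of the library, beside 0.313% for every other name together.

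**Figure D5:**
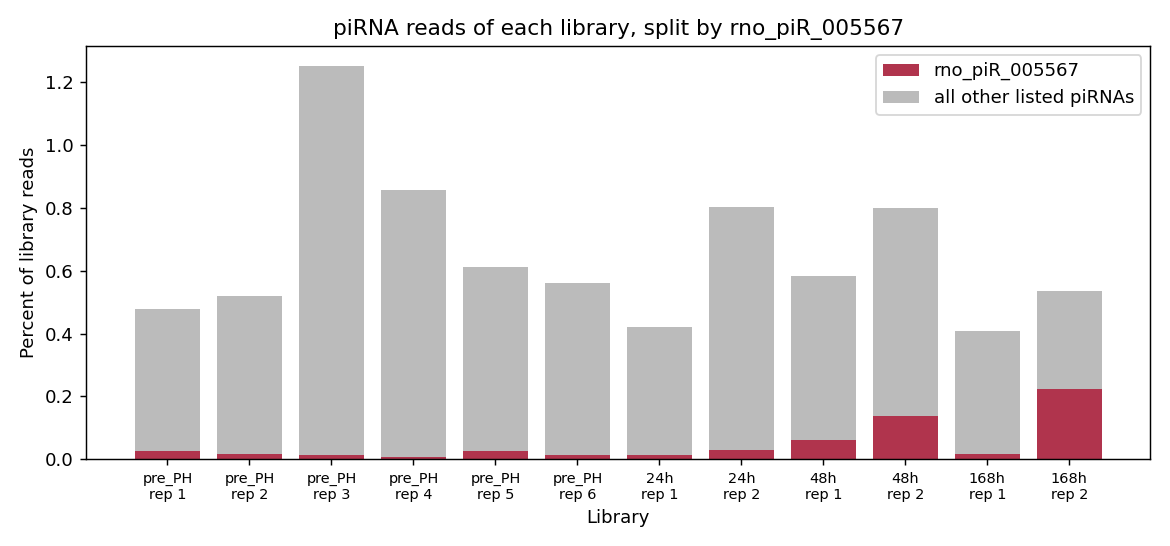
Percent of library reads (vertical axis, from 0) taken by rno_piR_005567 and by all other listed piRNAs, stacked, for each of the 12 libraries. The other piRNAs are lowest in the 168h libraries, at 0.392% and 0.313%, while rno_piR_005567 reaches 0.222% in 168h replicate 2.

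The makeup of that remaining pool was followed through rno_piR_000685. Of the piRNA reads other than rno_piR_005567, it held 45.2% ± 5.27 in pre_PH (SD, n = 6). The later pairs of libraries stood at 36.2% ± 2.56 (24h), 28.05% ± 2.83 (48h) and 37.9% ± 10.8 (168h). Both libraries were below the pre_PH range at 24h and at 48h, and 1 of 2 was at 168h, at 30.3% in replicate 2. How common this place was among all piRNAs was not counted on this scale, so it is a description. None passed (exact two-sided permutation p = 0.0714, 0.0357 and 0.286, adjusted p = 0.107, 0.107 and 0.286). Since rno_piR_000685 was named with earlier results of these libraries known, these are not p-values of a piRNA fixed in advance. The difference at 168h was no longer lower without replicate 2, where replicate 1 stood at 45.5%.

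Set against rno_piR_000685 itself, rno_piR_005567 had 0.0126 to 0.141 times its reads in pre_PH. The ratio was 0.0916 and 0.113 at 24h, 0.459 and 0.687 at 48h, and 0.0867 and 2.35 at 168h. The 24h libraries and 168h replicate 1 lay inside the pre_PH range of this ratio, and the other 3 lay above it. In 168h replicate 2 it was the more abundant of the pair, with 61011 reads against 26005.

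The other 9 abundant piRNAs did not move as a block with it. This list was taken from earlier results of these libraries. By RPM, none of the 9 lay above the pre_PH range in both 48h libraries and 1, rno_piR_004288, lay below it, at 259 and 221 RPM. Shares of the 80 piRNAs in these places were 40.0% above and 10.0% below, and 11.1% of the 36 were above. At 168h, rno_piR_005359 lay above, at 169 and 148 RPM against 55.2 to 116 in pre_PH. It also lay above at 24h, at 152 and 129 RPM, as 2.50% of the 80 did. Below at 168h was rno_piR_000685, at 1784 and 947 against 1877 to 5736. Places above and below at 168h were shared by 12.5% and 10.0% of the 80. With only 9 names, the counts at 168h were near these shares. Those at 48h were near the 11.1% above and 10.0% below. At 24h, rno_piR_005900 lay below, at 65.7 and 175 RPM against 207 to 495 in pre_PH. How many of the 80 did so was not counted. Fitted against pre_PH, the 9 had median log2 fold changes of -0.68 at 48h and -0.69 at 168h, beside medians of 0.09 and 0.33 over the 80. The values of rno_piR_005567 itself were 1.82 and 2.75. Between the 168h libraries, 7 of the 9 were lower in replicate 2 and 2 were higher. Those 2 were rno_piR_005901, at 137 and 565 RPM, and rno_piR_005900, at 134 and 334 RPM.

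These same 2 names also stood at places 1 and 3 in likeness of pattern by RPM. Likeness was measured by Spearman's rho of RPM over the 12 libraries, among the 35 other piRNAs with at least 10 reads in every library, as a description. Libraries share their total and their yield of piRNAs, which enter every rho. The most alike was rno_piR_005901, with a rho of 0.63, of 0.49 over the 6 pre_PH libraries and of 0.56 to 0.75 with any library left out. Its levels ran from 202 to 669 RPM in pre_PH and were 118 and 331 at 24h, and 1226 and 585 at 48h. At 48h its replicate 1 thus lay above its pre_PH range and its replicate 2 inside it, whereas rno_piR_005567 was above its own range in both and higher in replicate 2.

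The next by rho were rno_piR_001199 at 0.42, rno_piR_005900 at 0.40, rno_piR_033824 at 0.39 and rno_piR_005593 at 0.24, all weak. Without 48h replicate 2, those of rno_piR_001199 and rno_piR_005593 were 0.25 and 0.036. On TMM-normalised CPM the rho of rno_piR_005900 was 0.13, and that of rno_piR_005901 0.48. Over the pre_PH libraries alone the rho of rno_piR_005900 was 0.54, while those of rno_piR_001199, rno_piR_033824 and rno_piR_005593 were negative, at -0.26, -0.31 and -0.37. No name thus followed rno_piR_005567 closely, among those compared. The least alike over the 12 libraries were rno_piR_001825 at -0.60, rno_piR_023471 at -0.57 and rno_piR_000685 at -0.55. Over pre_PH alone these were 0.37, -0.14 and -0.60.

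Another 4 names had been noted as higher at 168h in earlier results of these libraries, and they differed from rno_piR_005567 in how the 168h libraries compared. All 4 lay above the pre_PH range in both 168h libraries by RPM, as 12.5% of the 80 did. Like rno_piR_005567, 2 of the 4 were above it in both 48h libraries, as were 40.0% of the 80. These 2 were rno_piR_001338, at 1.01 and 0.763 RPM, and rno_piR_033824, at 1.78 and 2.83 RPM. For rno_piR_019160 the levels were 36.4 and 40.3 RPM, against 5.59 to 18.9 in pre_PH. For rno_piR_002302 they were 2.48 and 2.95 RPM, against 0.534 to 1.21. The level of rno_piR_033824 was 3.74 and 2.55 RPM, and that of rno_piR_001338, with 12 and 16 reads, 0.387 and 0.583 RPM. Their ratios of replicate 2 to replicate 1 ran from 0.681 to 1.51, beside 14.4 for rno_piR_005567. Since these names were chosen for high values at 168h, their place there is a description. So are their replicate ratios, as such a choice favours names that are high in both libraries.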

How the data were processed

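TRIzol-extracted total RNA was made into gel-purified Illumina TruSeq small RNA libraries and sequenced on a HiSeq instrument, per the labels' protocols. The submitters' processing notes name CASAVA 1.8, cutadapt, DESeq 1.14.0 and the build rn4, with no role. The aligner, the mismatches allowed and the handling of reads that match several names are, like the length filter, not given in the sources used here. Therefore near-identical names may share reads.

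The deposited counts are raw reads and distinct sequences for each name, per the file headers. The 2 deposited percent columns divide by all library reads or by reads mapped to piRNAs, per the file headers. Read count over percent gave 1 constant a library, taken as its total. Listed reads were 99.2% to 99.9% of the mapped total. A name not listed was set to 0.

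Counts of the 12 libraries, in 4 groups, were fitted together with the robust quasi-likelihood method of edgeR 4.0.16 (R 4.3.3) after TMM scaling and filterByExpr, which kept 80 of 701 names. The fit was also run on simulated counts with known changes, set to a smaller spread than these data have. That run checks the code and says nothing on the precision of the values given here. The SE is the log2 fold change over the square root of F. The SE of a simple log2 difference uses the SD pooled within groups. DESeq2 1.42.0, other scalings and filters, a replicate block and leaving out each library were alternatives. Exact permutation tests enumerated all splits and were Benjamini-Hochberg adjusted over 3 times at a threshold of 0.05. Intervals cover counting error.

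The piRNA and the lists were chosen with earlier results of these data known. Named were rno_piR_005567, 9 abundant names, the 5 most and 3 least alike in pattern, and 4 names high at 168h. Names mentioned as holding the highest other value were chosen after values were seen.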

Additional observations from a re-analysis of the deposited data

Results flagged for a closer look

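Among 24 values examined in the 6 pre_PH libraries, 4 had a sample far from the others, by a gap to its neighbour above the 95% critical value of Dixon's ratio. Chance flags about 1 in 20 where values are normally distributed. The values were taken on a linear scale, where skewed ones can be flagged more often, so 4 is not read as an excess. None was a value of rno_piR_005567 itself. The share of rno_piR_000685 in piRNA reads other than rno_piR_005567 was 55.2% in pre_PH replicate 4, beside 46.2% in the next library. The level of rno_piR_000030 was 635 RPM in pre_PH replicate 3, beside 228 in the next. The level of rno_piR_005359 was 55.2 RPM in the same library, below the next at 98.3. The level of rno_piR_001338 was 0.243 RPM in pre_PH replicate 4, which is 6 reads, beside 0.0713 in the next.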

How the results depend on the processing

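Values of rno_piR_005567 are log2 fold changes from the edgeR fit, with no test. Across other scalings, filters and DESeq2, the differences from pre_PH stayed positive, from 0.34 to 0.93 at 24h, 1.58 to 3.03 at 48h and 2.25 to 3.51 at 168h. On the 36 piRNAs with at least 10 reads in every library, the change from 24h to 48h was 2.31, that from 48h to 168h was -0.33 and that from pre_PH to 48h was 3.03. With no filter on low counts, that from 48h to 168h was 1.93. Leaving out 1 library gave ranges of -0.26 to 1.06 at 24h, 0.67 to 1.96 at 48h and 0.17 to 3.65 at 168h against pre_PH. Between times they were 0.028 to 1.37 from 24h to 48h, -1.68 to 2.98 from 48h to 168h and -0.89 to 3.0046 from 24h to 168h. Fits without a library also refilter the names and recompute TMM. The cause of these shifts was not tested.

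With the replicate block over the 6 libraries after hepatectomy, the changes were 1.15, 0.54 and 1.69 from 24h to 48h, 48h to 168h and 24h to 168h, against 1.21, 0.94 and 2.14 in those libraries without it, an alternative added after seeing the data. Deviations of same-numbered libraries correlated at 0.19, -0.20 and 0.14. With 2 libraries a time, each value compares 1 difference with 1 other, so it cannot decide whether the numbers mark pairs. The labels do not say so, and the numbers were not taken as pairs.

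The log2 share of other piRNAs against pre_PH, with a library left out, ranged from -0.69 to 0.24 at 24h, -0.33 to 0.034 at 48h and -1.06 to -0.71 at 168h. It turned positive at 24h without 24h replicate 1, and at 48h without 48h replicate 1 (0.023) or pre_PH replicate 3 (0.034). For rno_piR_000685 within that pool the ranges were -0.39 to -0.24, -0.79 to -0.58 and -0.57 to 0.015. Neither measure passed under any alternative, but this says nothing about stability. With a library of the time left out, 7 splits allow no p under 0.143.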
